A study of Mus musculus with 16 samples.

Results

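The nuclear genes for subunits of the mitochondrial respiratory chain and ATP synthase were followed in whole brain of mice with a Tecpr2 frameshift and of their wild-type littermates. Members were chosen by symbol alone: Nduf genes of the series a, b, c, s and v with a number, Ndufab1, Sdha to Sdhd, Uqcr genes, Cyc1, Cox4 to Cox8 genes and Atp5 genes. Pseudogene symbols ending in -ps were left out, and the values of a member had to sum to more than 16 over the 16 mice. Of the 55404 genes in the table, 94 matched by symbol and 85 were members, namely 36 of complex I, 4 of complex II, 9 of complex III, 19 of complex IV and 17 of complex V. The other 9 matches were 7 pseudogene symbols, Cox8c and a second Atp5o identifier, the latter pair at 0 in every mouse. Ndufa4 was counted with complex IV, where the protein resides. Cox6c2 is a member by its symbol, but the annotation gives it as a processed pseudogene, and the other 84 members are protein-coding. Atp5s, too, is a member by its symbol, and RefSeq names this gene Dmac2l. 2 subunit genes carry other symbols in the annotation used here (Ndufb1-ps and Usmg5) and so were no members.

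Total RNA of whole brain was sequenced from 8 Tecpr2 ki/ki (in the following, ki/ki) and 8 wt/wt males of 5 months, raised on C57BL/6J, with a single library for each. Both Tecpr2 alleles of the ki/ki animals carry L1152Yfs, a frameshift. Tecpr2 is a gene that acts in autophagy and endolysosomal traffic and is mutated in a hereditary sensory and autonomic neuropathy. The change was introduced with CRISPR/Cas9 into zygotes and is carried by every cell of the animal, and wt/wt mice have the unedited gene. The comparison asks which transcripts differ in the brain when TECPR2 is lost. Tecpr2 itself served as a check of the labels, with a median of 298.5 (274 to 320) in ki/ki and of 968.5 (928 to 1002) in wt/wt mice, without overlap.

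The respiratory chain passes electrons from NADH (complex I) and succinate (complex II) through complex III to complex IV, where oxygen is reduced, and complex V, the ATP synthase, uses the resulting proton gradient to make ATP. A small share of the subunits is encoded in mitochondrial DNA and all others in the nucleus. Neurons depend on this chain for most of their ATP, and damaged mitochondria are cleared in part by autophagy.

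All values below are the deposited normalized values, which sum to between 11964284 and 12252324 per mouse, or log2(value + 1) where a log2 difference is given. The depth factors that could be recovered from the rounded values correspond to 9.23 to 15.39 megareads on genes per library. Differences are ki/ki minus wt/wt, with the standard error (SE) from limma, and p-values were adjusted by Benjamini-Hochberg over all 23244 genes tested. Testing required a value above 5 in 4 or more mice of 1 genotype, which 82 of the 85 members met. Cox6c2, Cox7b2 and Cox8b had lower values and were not tested.

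The 3 tested members with the largest log2 differences below 0 were Atp5e, Ndufa11 and Atp5g2, and their promoter windows are shown together with those of Sdha and Atp5b, the most abundant members per kilobase of complexes II and V. Each window holds 250 bases before and 50 bases after the annotated start, 5′ to 3′ on the gene's strand, from RefSeq on GRCm38.p6. Capitals mark 4 motifs searched on both strands, namely GCGCA followed by any base and GCGC (NRF1, nuclear respiratory factor 1), CCGGAAG (ETS factors such as GABP, also called NRF2), AAGATGGCG (YY1) and TATAAA (the TATA box).

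Atp5e, chr2:174464052-174464351, minus strand: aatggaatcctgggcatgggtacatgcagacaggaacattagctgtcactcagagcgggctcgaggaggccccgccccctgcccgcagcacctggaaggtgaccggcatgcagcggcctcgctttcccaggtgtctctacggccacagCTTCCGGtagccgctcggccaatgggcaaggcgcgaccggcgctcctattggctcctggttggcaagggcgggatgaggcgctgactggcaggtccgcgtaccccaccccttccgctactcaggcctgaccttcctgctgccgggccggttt

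Ndufa11, chr17:56717512-56717811, plus strand: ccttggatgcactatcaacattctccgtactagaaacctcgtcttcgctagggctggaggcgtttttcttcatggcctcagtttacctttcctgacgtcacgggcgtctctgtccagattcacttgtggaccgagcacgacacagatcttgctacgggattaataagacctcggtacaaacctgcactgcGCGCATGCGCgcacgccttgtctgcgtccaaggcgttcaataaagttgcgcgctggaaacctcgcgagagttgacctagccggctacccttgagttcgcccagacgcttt

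Atp5g2, chr15:102670998-102671297, minus strand: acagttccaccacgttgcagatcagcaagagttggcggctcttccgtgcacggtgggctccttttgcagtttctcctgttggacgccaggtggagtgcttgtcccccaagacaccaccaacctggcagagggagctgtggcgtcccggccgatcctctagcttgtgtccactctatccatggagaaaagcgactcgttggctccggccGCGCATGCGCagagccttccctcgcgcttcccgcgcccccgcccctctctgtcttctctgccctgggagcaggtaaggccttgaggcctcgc

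Sdha, chr13:74350191-74350490, minus strand: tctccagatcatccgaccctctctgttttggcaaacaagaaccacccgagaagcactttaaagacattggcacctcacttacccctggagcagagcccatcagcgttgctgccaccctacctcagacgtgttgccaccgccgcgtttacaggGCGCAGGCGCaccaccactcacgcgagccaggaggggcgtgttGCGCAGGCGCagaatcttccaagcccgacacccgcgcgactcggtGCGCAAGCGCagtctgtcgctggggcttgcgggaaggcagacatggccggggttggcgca

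Atp5b, chr10:128083057-128083356, plus strand: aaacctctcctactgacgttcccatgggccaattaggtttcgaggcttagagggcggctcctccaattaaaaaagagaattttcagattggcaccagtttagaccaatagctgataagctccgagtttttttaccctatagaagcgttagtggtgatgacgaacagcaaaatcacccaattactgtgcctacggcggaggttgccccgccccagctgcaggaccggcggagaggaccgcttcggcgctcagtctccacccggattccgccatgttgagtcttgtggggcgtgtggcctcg

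The ETS match of Atp5e began 102 bases before the start, and the NRF1 matches of Ndufa11 and Atp5g2 began 60 and 42 bases before it. Sdha held 3 NRF1 matches and the window of Atp5b none of the 4 motifs. A RefSeq window was found for 69 of the 85 members. The NRF1 letters occurred in 16 of these 69 windows (23.2%), against 4.59% of all 32817 windows of this length. The ETS letters occurred in 15 (21.7%, against 8.86% of all windows) and the YY1 letters in 6 (8.70%, against 1.399%). TATAAA occurred in 7 member windows (10.1%, against 13.6%). By complex, NRF1 matches were in 7 of 32 windows of complex I, 2 of 3 of complex II, 1 of 5 of complex III, 1 of 14 of complex IV and 5 of 15 of complex V. Matches of different motifs did not overlap each other, 4 members held both an NRF1 and an ETS match, and 37 held no NRF1, ETS or YY1 match. These are matches of letters, and binding was not measured.

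Levels between genes were compared as the mean value of 16 mice per kilobase of the principal transcript. Complex V held the most abundant member, Atp5b, the catalytic beta subunit, at 4053 per kilobase, followed in that complex by Atp5a1, the alpha subunit, at 2256. These 2 genes made up 33.0% and 23.7% of the summed values of complex V. In complex IV, Cox4i1 stood highest at 2703 per kilobase, before Cox8a (2014) and Cox6a1 (1842). The 36 genes of complex I lay in a narrower range, from 181 for Ndufa13 to 752 for Ndufs5 per kilobase. In complex II, Sdha, the flavoprotein that oxidizes succinate, stood at 1061 and the membrane anchor Sdhc at 183 per kilobase. In complex III, the range ran from 390 for Uqcrfs1, the Rieske iron-sulfur protein, to 1074 for the small subunit Uqcrq. These orders depend on the length used. Per kilobase of all exons of a gene joined, Atp5b (1833), Sdha (746), Sdhc (178), Atp5s (71.8) and Cox7b2 (4.27) kept their places as the highest or lowest of their complexes. On that length, complex I ran from 54.1 for Ndufb7 to 558 for Ndufc2. Uqcrq was then the lowest of complex III at 238 and Uqcr11 the highest at 720. Cox4i1 (1299) stood below Cox8a (1790), Cox6a1 (1498) and Cox6b1 (1343).

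**Figure D1:**
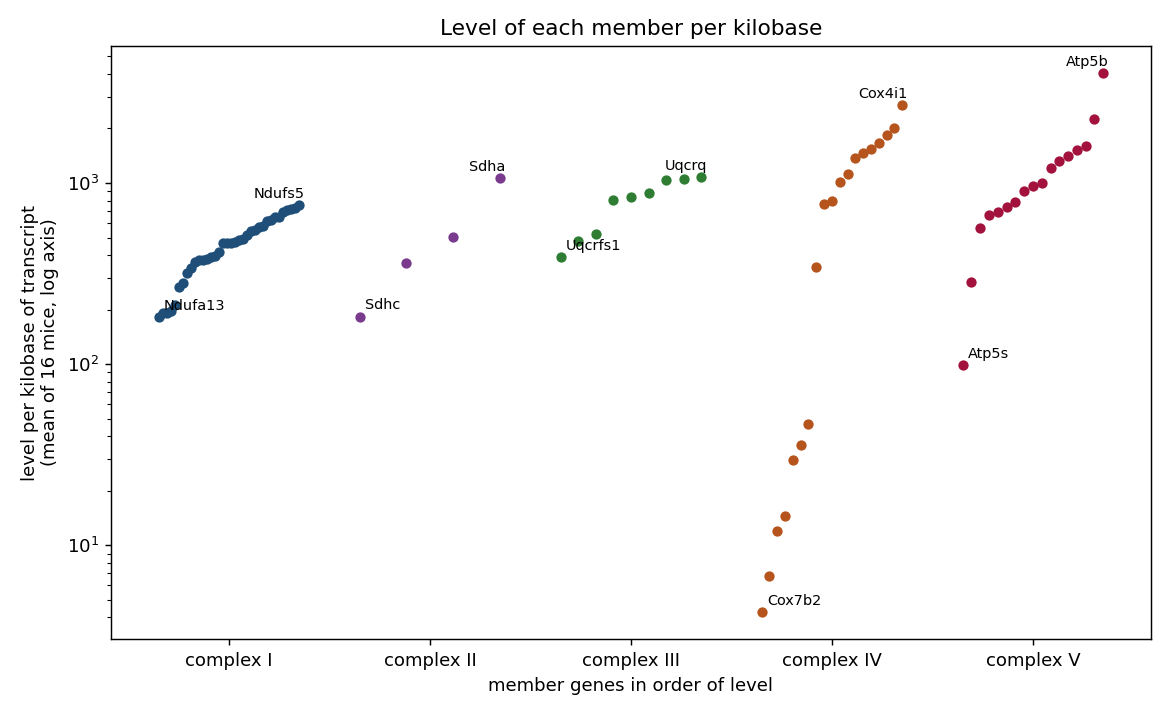
Level of each of the 85 members per kilobase of transcript (mean of 16 mice, log axis), with genes ordered by level within each complex and the lowest and highest gene named. Complex I spans 181 to 752, while complex IV runs from 4.27 for Cox7b2 to 2703 for Cox4i1.

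The widest range was in complex IV, whose subunits have isoforms used in different tissues. The isoform pairs differed in level per kilobase in the same order in the 6 pairs named here, with the ubiquitous form far above the form known from heart and skeletal muscle, lung or testis. Cox4i1 stood at 2703 per kilobase against 14.5 for Cox4i2, the form known from lung, and Cox6a1 at 1842 against 29.7 for Cox6a2. Cox6b1 stood at 1539 against 46.5 for the testis form Cox6b2, and Cox7a2 at 1114 against 35.6 for the muscle form Cox7a1. Cox8a stood at 2014 against 12.0 for Cox8b, and Cox7b at 767 against 4.27 for Cox7b2. In ATP synthase, the 3 genes for the same mature c subunit were closer, with 1606 per kilobase for Atp5g3, 1401 for Atp5g1 and 1212 for Atp5g2. Per kilobase of all joined exons, the order of the 6 isoform pairs was the same, while the c subunit genes lay further apart at 526 for Atp5g3, 319 for Atp5g2 and 170 for Atp5g1.

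Some of these transcripts share sequence with other genes, either copies elsewhere in the genome or neighbours that overlap them. How the authors treated reads that align to several places is not given in the sources used here. The median member shared 7.11% of the 31-base words of its principal transcript with transcripts of other genes, and 25 of 85 shared none. Over 10% of the words were shared for 39 of 85 members, and over 50% for 9 (Atp5g2, Atp5l, Atp5g1, Atp5o, Cox6c2, Atp5h, Uqcrb, Cox7c and Ndufs3), so that the values of these genes are uncertain. Exons on the opposite strand overlapped 26 members, among them Ndufs1, Uqcrc2 and Cox4i1. The libraries kept the strand, but whether it was used in counting is not given in the sources used here.

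No member passed the test between genotypes. At an adjusted p under 0.1, limma called 0 of 82 members and 31 of all 23244 genes tested (0.133%), and the lowest adjusted p of a member was 0.513, for Atp5e. At an unadjusted p under 0.05, 8 members were lower and 0 higher in ki/ki mice (9.76% and 0%), where 3.01% of all genes tested were lower and 3.07% higher at that threshold. That count depended on single libraries: it was 4 without wt/wt mouse 3 or 6 or ki/ki mouse 8, 5 without wt/wt mouse 4 or 8 or ki/ki mouse 4, and 14 without wt/wt mouse 7. The 2 genotypes overlapped for 85 of 85 members, while 20 of the 23244 genes tested did not overlap (0.086%). The 95% interval of the difference stayed within 0.2 on the log2 scale on either side of 0 for 74 of the 82 members, and within 0.1 for 28. In bulk tissue such as whole brain, fewer cells of a type and less RNA per cell cannot be told apart.

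Most members had a slightly lower mean in the ki/ki group. The difference was below 0 for 59 of 82 members (72.0%) with a median of -0.02, against 50.5% of all genes tested with a median of -0.00098. Since all but 8 of the tested members had a mean value above 200, the 8542 tested genes above that mean were taken as well: 56.9% of these were lower, with a median of -0.0066, against 55 of 74 members (74.3%) with a median of -0.021. The median difference was -0.018 in complex I (23 of 36 lower), -0.033 in complex II (4 of 4), -0.050 in complex III (7 of 9), -0.017 in complex IV (11 of 16) and -0.020 in complex V (14 of 17). Differences between the complexes were not tested. Without wt/wt mouse 3, 49 of 82 members were lower, with a median of -0.0097 against 59 and -0.020 with all 16 mice. Without ki/ki mouse 8, 51 were lower and the median of complex IV was 0.00074.

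**Figure D2:**
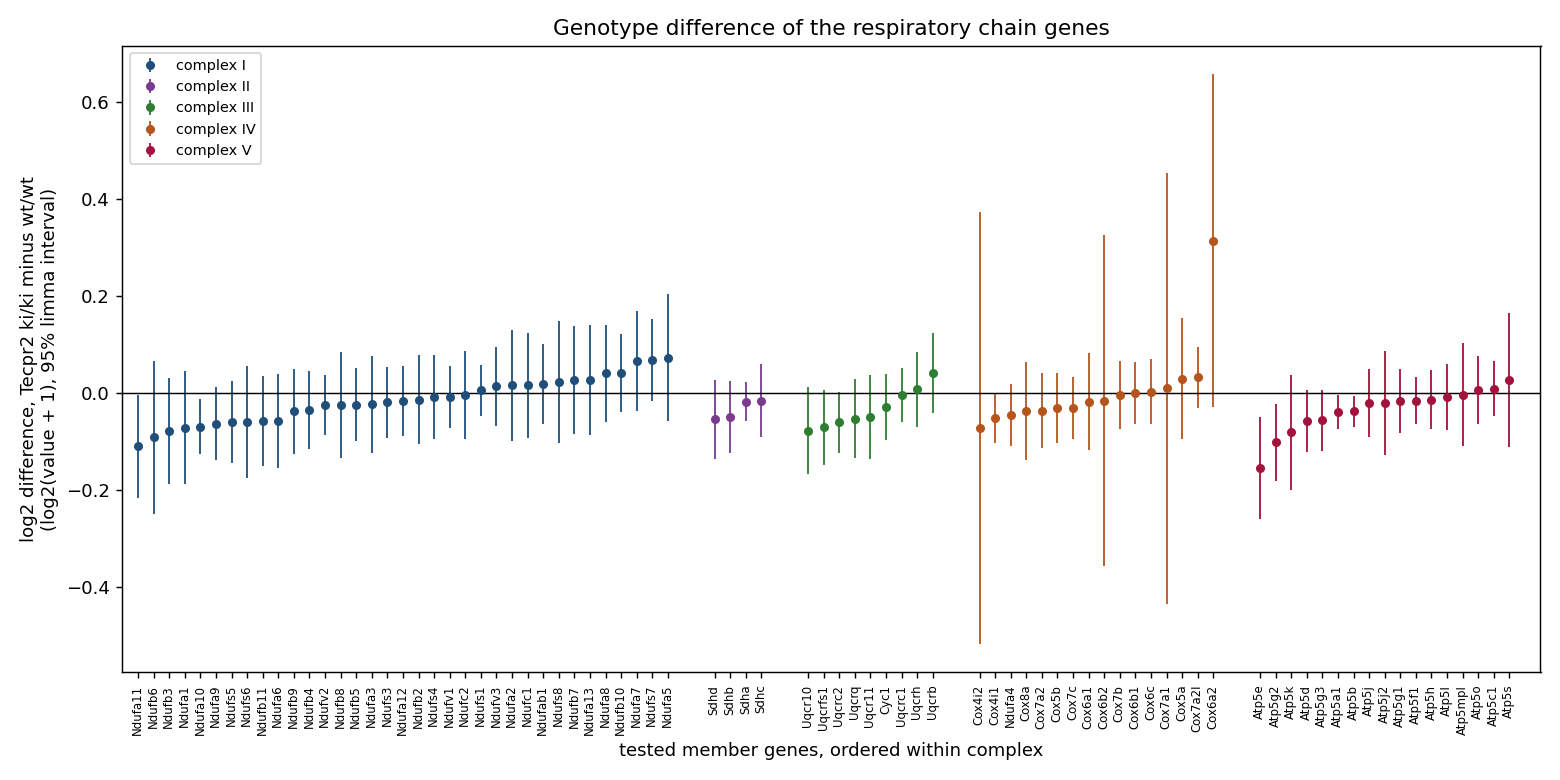
Log2 difference (ki/ki minus wt/wt, log2(value + 1)) of 81 tested members with 95% limma intervals, ordered within each complex. 58 of 81 points lie below 0, the intervals of 73 stay within 0.2 of 0, and those of 8 reach further, namely the low-level isoforms Cox4i2, Cox6b2, Cox7a1 and Cox6a2, which are the widest, and Atp5e, Ndufb6, Ndufa11 and Ndufa5.

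In complex V, the F1 head of alpha and beta subunits makes ATP as a central stalk of gamma, delta and epsilon subunits turns within it. Atp5e, the epsilon subunit (chromosome 2, 174461072 to 174464105 of GRCm38, minus strand), had values of 194 to 235 in ki/ki mice (median 229.5) and of 233 to 269 in wt/wt mice (median 250). The 2 genotypes overlapped in a narrow range, and 8 of 8 ki/ki mice lay below the wt/wt median. The log2 difference was -0.15 ± 0.05 (SE; unadjusted p = 0.0043 and adjusted p = 0.513 by limma), a relative difference of the means of -10.1%, and the exact two-sided permutation test of this gene alone gave p = 0.00047. Over the 24 alternative settings and left-out mice, its adjusted p lay between 0.469 and 0.722. Its principal transcript shared no word of 31 bases with a transcript of another gene.

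Atp5b, the beta subunit that carries the catalytic sites, lay between 7511 and 8005 in ki/ki mice (median 7630.5) and between 7598 and 8225 in wt/wt mice (median 7816.5). Its difference was -0.04 ± 0.02 (SE; adjusted p = 0.736 by limma), and 7 of 8 ki/ki mice were below the wt/wt median. Atp5a1, its alpha partner, had a difference of the same size, -0.04 ± 0.02 (SE; adjusted p = 0.777 by limma), with 5383 to 5735 (median 5427) against 5475 to 5929 (median 5603.5). Atp5d, the delta subunit, stood at 842 to 951 (median 863.5) against 829 to 990 (median 919), and Atp5c1, the gamma subunit, at 996 to 1102 (median 1057.5) against 997 to 1100 (median 1052). The differences of the F1 genes thus ran from -0.15 for Atp5e to 0.009 for Atp5c1, and the ranges of the genotypes overlapped for each of them.

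The c subunit forms the rotor ring in the membrane and is made from 3 genes. Atp5g2 lay between 465 and 564 in ki/ki mice (median 522) and between 522 and 624 in wt/wt mice (median 539), with a difference of -0.10 ± 0.04 (SE; unadjusted p = 0.013, adjusted p = 0.666 by limma). The highest value was that of wt/wt mouse 3, and without this mouse the difference was -0.08. The value of Atp5g2 is uncertain, since 100% of the 31-base words of its principal transcript also occurred in Gm10175, which lay between 270 and 349 (median 308) in ki/ki and between 299 and 370 (median 327.5) in wt/wt mice (difference -0.09 ± 0.05 SE). Atp5g3 had a difference of -0.06 ± 0.03 (SE) and Atp5g1 of -0.02 ± 0.03 (SE). In the peripheral stalk, which holds the head in place, the 4 genes Atp5f1, Atp5h, Atp5j and Atp5o had differences between -0.021 and 0.0065, and their intervals stayed within 0.1 of 0 for 4 of 4. Of the small membrane subunits, Atp5k was lowest with -0.08 ± 0.06 (SE). Atp5s (Dmac2l in RefSeq), which was set apart from the subunit groups of complex V, was its least abundant symbol per kilobase. It had a difference of 0.03 ± 0.07 (SE).

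**Figure D3:**
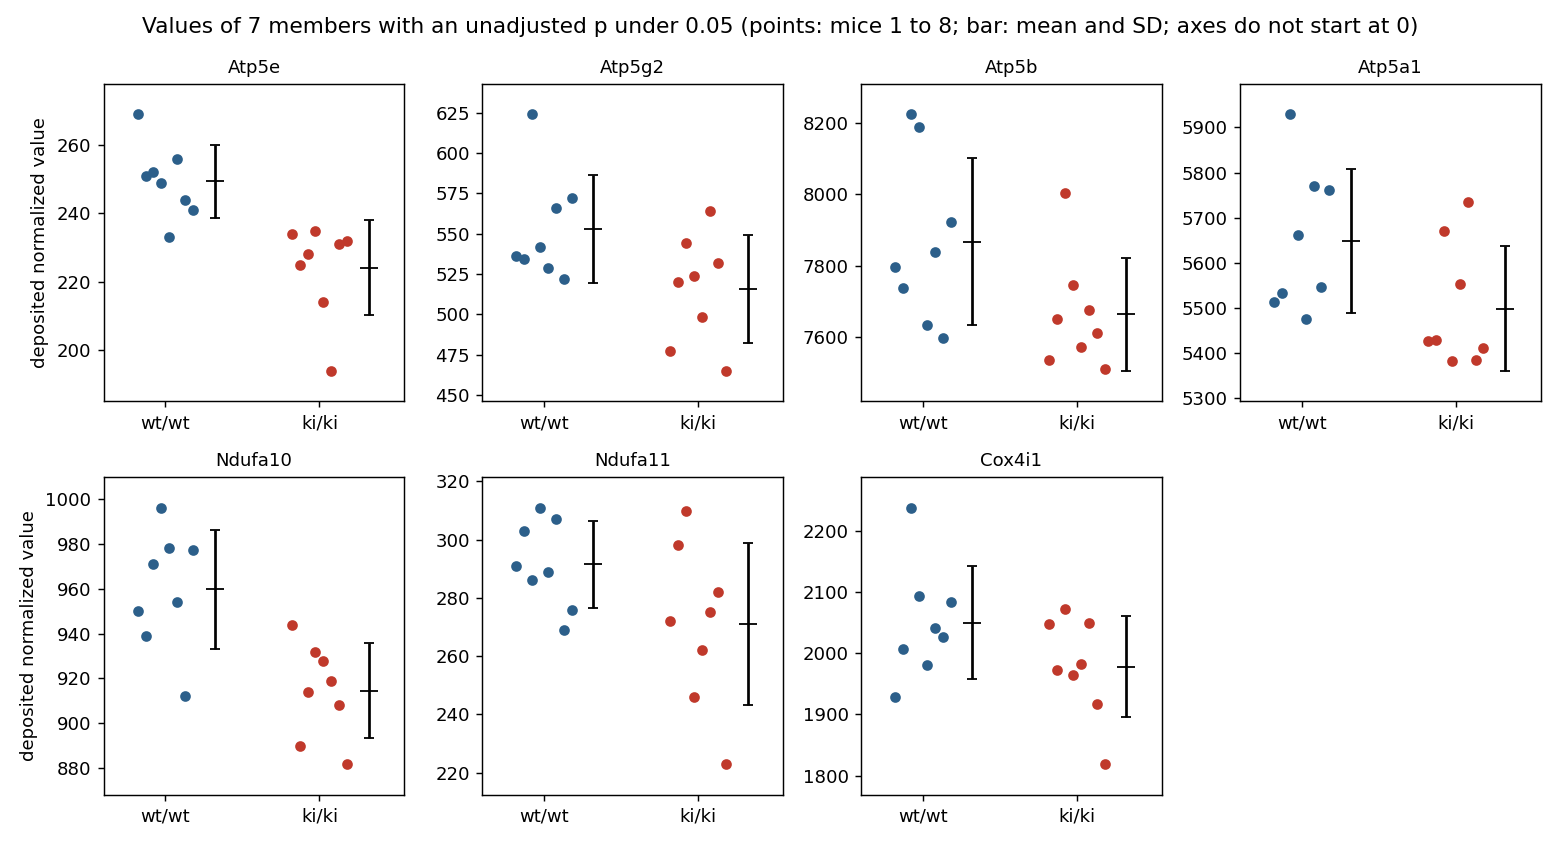
Deposited normalized values of 7 members with an unadjusted p under 0.05, for wt/wt mice (blue) and ki/ki mice (red), each point a mouse from 1 to 8 and each bar the mean with its SD. The genotypes overlap in each panel, least for Atp5e, and the axes do not start at 0.

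In complex I, the 7 core subunits carry the flavin and the iron-sulfur clusters or bind quinone. Of these, 4 were lower and 3 higher in ki/ki mice. Ndufs7, an iron-sulfur subunit, had the largest difference above 0 among them, with 401 to 476 (median 446.5) against 382 to 478 (median 426) and a log2 difference of 0.07 ± 0.04 (SE; adjusted p = 0.888 by limma). Ndufs1, which holds several iron-sulfur clusters, lay at 1226 to 1278 (median 1257.5) against 1200 to 1367 (median 1240.5), and Ndufv1, which binds NADH and the flavin, at 862 to 1014 (median 937.5) against 884 to 1015 (median 950.5). The differences of both were within 0.01 of 0.

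Of the 29 supernumerary genes of complex I, which surround the core, 19 were lower and 10 higher. Ndufa10 (chromosome 1, 92439010 to 92473860, minus strand), an accessory subunit related to nucleoside kinases, lay between 882 and 944 in ki/ki mice (median 916.5) and between 912 and 996 in wt/wt mice (median 962.5). All 8 ki/ki mice were below the wt/wt median, and 2 wt/wt mice lay within their range. Its difference was -0.07 ± 0.03 (SE; unadjusted p = 0.018, adjusted p = 0.718 by limma), and the exact two-sided permutation test of this gene alone gave p = 0.0031. Ndufa11, an accessory subunit of the membrane arm, lay between 223 and 310 (median 273.5) against 269 and 311 (median 290), with a difference of -0.11 ± 0.05 (SE; adjusted p = 0.820 by limma), and 28.2% of its words were shared with other transcripts. Ndufa5, an accessory subunit of the matrix arm, had the largest difference above 0 in complex I, 0.07 ± 0.07 (SE), with 147 to 204 (median 172.5) against 135 to 182 (median 167). Ndufa13 (204 to 253 against 196 to 259) and Ndufa2 (200 to 254 against 208 to 247) had differences of 0.03 ± 0.06 and 0.02 ± 0.06 (SE). Ndufa3 spread more widely in ki/ki mice (296 to 400 against 337 to 382), with 2 ki/ki mice below and 3 above the wt/wt range, and its difference was -0.02 ± 0.05 (SE). Ndufs5, the most abundant gene of the complex per kilobase of the principal transcript, had a difference of -0.06 ± 0.04 (SE). The accessory genes thus spread to both sides of 0, and none of the 29 passed the test.

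The 4 genes of complex II, which is also an enzyme of the citric acid cycle, were lower in ki/ki mice by less than their errors or little more. Sdha lay between 2938 and 3154 (median 3073) against 2958 and 3197 (median 3120.5), with a difference of -0.02 ± 0.02 (SE). Sdhb, the iron-sulfur subunit, had a difference of -0.05 ± 0.04 (SE), Sdhc of -0.02 ± 0.04 (SE) and Sdhd, like Sdhc a membrane anchor, of -0.05 ± 0.04 (SE). Limma's adjusted p for the 4 genes was at least 0.902. Sdha alone made up 65.8% of the summed values of the complex, so that the complex sum follows this gene.

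In complex III, 7 of 9 genes were lower. Uqcrc2, a core subunit without a redox group, lay between 843 and 952 in ki/ki mice (median 887) and between 838 and 977 in wt/wt mice (median 940.5), with a difference of -0.06 ± 0.03 (SE; adjusted p = 0.846 by limma), while its partner Uqcrc1 had a difference of -0.004 ± 0.028 (SE) with 1296 to 1495 (median 1369) against 1326 to 1463 (median 1366). Uqcrfs1 had a difference of -0.07 ± 0.04 (SE), with 472 to 561 (median 516) against 511 to 593 (median 545). Cyc1, the cytochrome c1 subunit, had a difference of -0.03 ± 0.03 (SE), with 719 to 881 (median 783.5) against 755 to 839 (median 809.5). Uqcrb, which was among the 2 genes of complex III above 0, had a difference of 0.04 ± 0.04 (SE). The genotypes overlapped in each of these genes.

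In complex IV, Cox4i1, which contacts the mitochondrially encoded core, lay between 1819 and 2072 in ki/ki mice (median 1978) and between 1929 and 2238 in wt/wt mice (median 2034.5). Its difference was -0.05 ± 0.03 (SE; adjusted p = 0.821 by limma) and the exact two-sided permutation p was 0.128. The highest value belonged to wt/wt mouse 3, and without it the difference was -0.03. Cox5a lay between 194 and 261 (median 222.5) against 172 and 260 (median 223.5), and Cox6b1 had a difference of -0.00027 ± 0.03 (SE). The 4 tissue isoforms that were tested had wide errors at low values. Among them, Cox6a2, the form known from heart and skeletal muscle, had the largest difference of any member, 0.31 ± 0.17 (SE; adjusted p = 0.875 by limma), at 16 to 31 (median 22) against 14 to 23 (median 17). Cox6b2 (15 to 27 against 15 to 31), Cox7a1 (5 to 21 against 8 to 22) and Cox4i2 (6 to 14 against 6 to 14) overlapped over most of their ranges. Cox7a2l had a difference of 0.03 ± 0.03 (SE).

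Summed over its members, each complex took a nearly equal share of all values in both genotypes. Complex V took 0.192% ± 0.003 (SD, n = 8) of all values in the ki/ki group and 0.196% ± 0.004 (SD, n = 8) in the wt/wt group, a relative difference of -2.05%. Complex I took 0.133% ± 0.002 (SD, n = 8) against 0.134% ± 0.002 (SD, n = 8), and complex IV 0.0915% ± 0.0023 (SD, n = 8) against 0.0926% ± 0.0027 (SD, n = 8). The share of complex III was 0.0484% ± 0.0013 (SD, n = 8) against 0.0492% ± 0.0009 (SD, n = 8), and that of complex II 0.0384% ± 0.0010 (SD, n = 8) against 0.0389% ± 0.0008 (SD, n = 8). The shares of the genotypes overlapped for each complex. All 85 members together lay between 0.494% and 0.521% (median 0.503%) in ki/ki mice and between 0.501% and 0.531% (median 0.508%) in wt/wt mice, with 7 of 8 ki/ki mice below the wt/wt median.

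**Figure D4:**
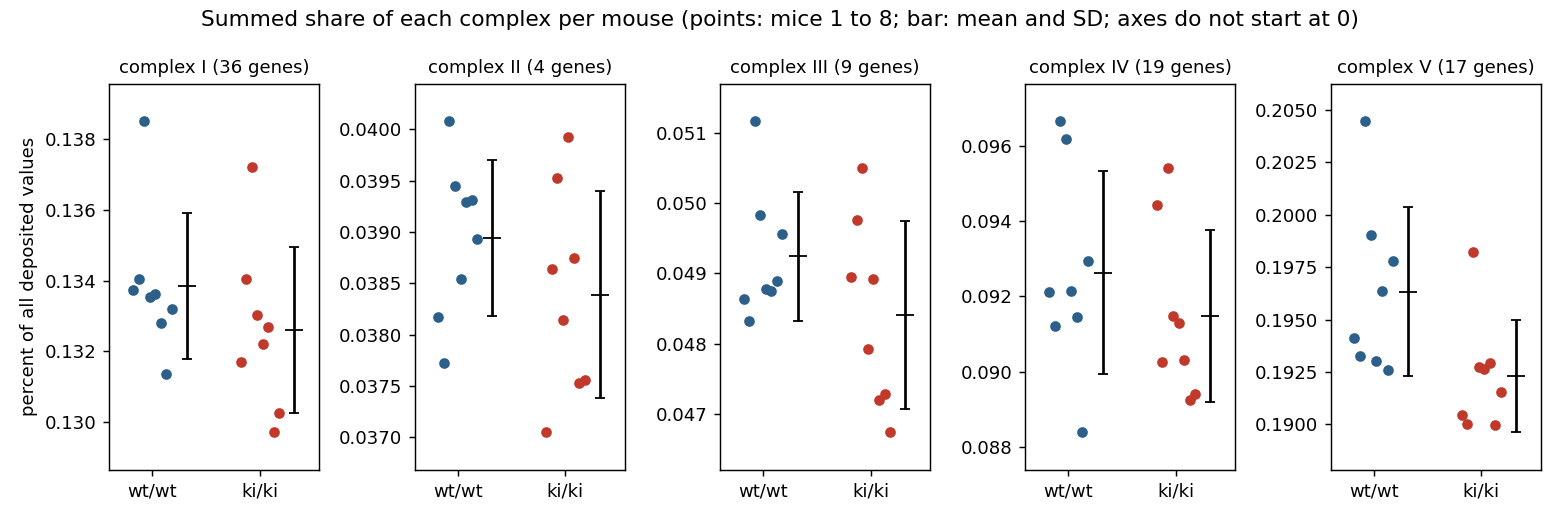
Summed values of the members of each complex as a percent of all deposited values, for wt/wt mice (blue) and ki/ki mice (red), each point a mouse and each bar the mean with its SD. The genotypes overlap in each complex, wt/wt mouse 3 is the highest point in all 5 panels, and the axes do not start at 0.

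Members of different complexes deviated together in single mice. As the median over the 82 tested members of log2(value + 1) minus the mean of the 16 mice, wt/wt mouse 3 stood at 0.088, before ki/ki mouse 3 (0.043) and wt/wt mouse 4 (0.036), while ki/ki mice 7 and 8 stood at -0.051 and -0.046. The same median over all genes tested lay between 0.0029 and 0.0078 in every mouse. Of 82 members, wt/wt mouse 3 had the highest value for 29 and was above the mean of the mice for all but 8. ki/ki mouse 8 had the lowest value for 18, ki/ki mouse 7 for 12 and wt/wt mouse 7 for 11. Wt/wt mouse 3 also had the largest total of values (12252324) and ki/ki mice 8 and 7 the smallest (11964284 and 11992532); their part in the member values was not tested.

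**Figure D5:**
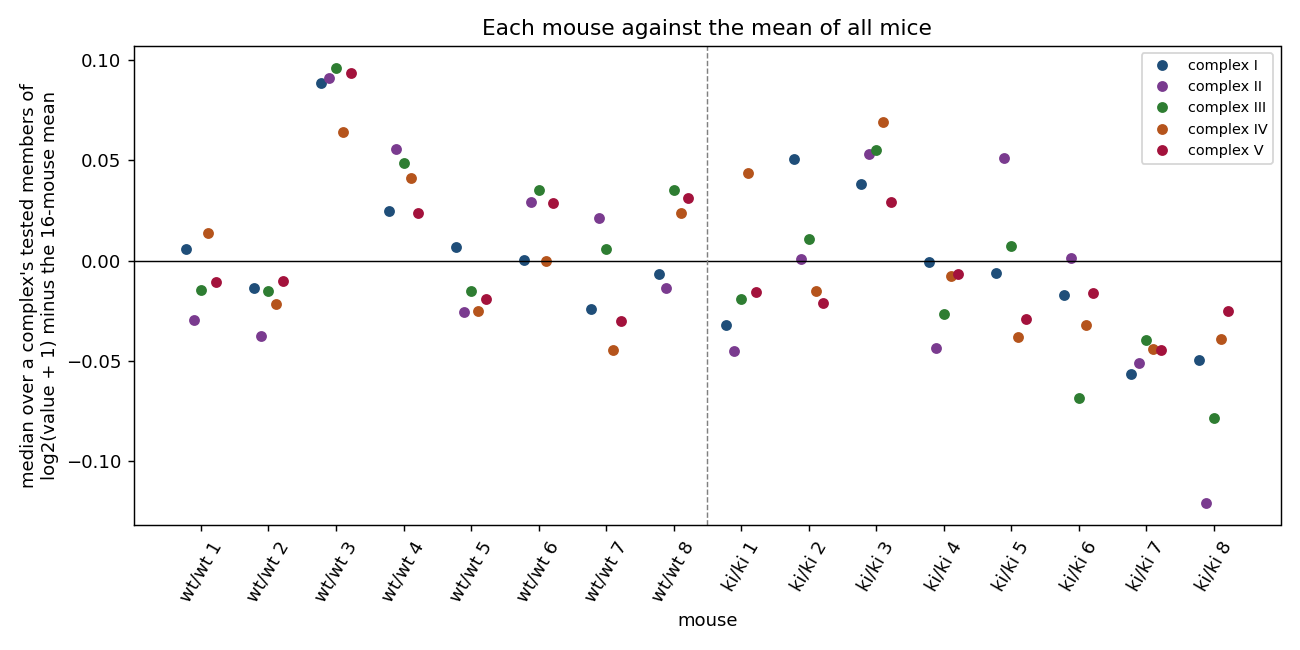
Median over the tested members of each complex of log2(value + 1) minus the 16-mouse mean, for each mouse. Wt/wt mouse 3 stands between 0.064 and 0.096 in the 5 complexes and ki/ki mouse 7 between -0.057 and -0.040.

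The cytosolic and mitochondrial ribosomal protein genes, lists made by symbol after the member values had been seen, were taken for comparison. They were not matched to the members in level or length. Of 74 tested mitochondrial ribosomal protein genes, 34 were lower in ki/ki mice (45.9%, median difference 0.0026), and of 81 cytosolic ones 36 were lower (44.4%, median 0.0011). In the cytosolic list, ki/ki mouse 3 stood highest at 0.060, just before wt/wt mouse 3 at 0.059, and wt/wt mouse 7 lowest at -0.058. In the mitochondrial list, wt/wt mouse 3 stood at -0.0013. The spread of the members between mice of a genotype was a median coefficient of variation of 5.71%. Counting at the recovered depth alone would give 4.60%, and 60 of 82 members were under 1.5 times their own counting value.

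The other genes of respiration did not pass the test either, with 0 genes at an adjusted p under 0.1 by limma in each of the lists of assembly factors (17 genes tested for complex I, 4 for II, 6 for III, 17 for IV and 4 for V), electron carriers (17), mitochondrially encoded subunits (13), regulators of mitochondrial biogenesis (13) and the citric acid cycle (16). The share of genes below 0 was near the 72.0% of the members in several of these lists. Lower were 12 of 16 citric acid cycle genes (75%, median difference -0.011) and 12 of 17 electron carriers (70.6%, median -0.012). The short lists of assembly factors for complexes II and V also stood at 75%. Of the assembly factors, 8 of 17 were lower for complex I, 3 of 4 for II, 5 of 6 for III, 6 of 17 for IV and 3 of 4 for V, and of the biogenesis regulators 8 of 13. Among the mitochondrially encoded subunits, 8 of 13 were lower (median -0.019). The lowest p was that of mt-Nd3, a membrane subunit of complex I, with 7175 to 7952 (median 7508) against 7606 to 8327 (median 7858.5) and a difference of -0.07 ± 0.02 (SE; adjusted p = 0.135 by limma). Second was mt-Co3, a core subunit of complex IV, with a difference of -0.04 ± 0.01 (SE; adjusted p = 0.399 by limma). Ppargc1a, a coactivator of mitochondrial biogenesis, lay between 702 and 819 (median 773.5) against 768 and 846 (median 822), with a difference of -0.08 ± 0.03 (SE; adjusted p = 0.699 by limma). Pdss2, of coenzyme Q synthesis, lay between 183 and 199 (median 191.5) against 153 and 181 (median 174.5), without overlap and with a difference of 0.16 ± 0.06 (SE; adjusted p = 0.560 by limma). Taco1, which promotes translation of the mitochondrial Cox1 mRNA, had a difference of -0.21 ± 0.09 (SE), with 62 to 91 (median 81) against 82 to 104 (median 88).

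Some markers of cell types moved with genotype beside these values. Of 6 astrocyte markers, 3 were called higher in ki/ki mice (Gfap, Aqp4 and Slc1a2). The summed share of the 6 was 0.471% to 0.490% against 0.441% to 0.467%, without overlap. Slc1a2 made up most of this sum (44657 to 46722 against 42299 to 45369), so that the sum largely follows this gene. Slc1a3, Aldh1l1 and Gja1 were not called, with differences of 0.030, 0.041 and -0.0048. Of 6 microglia markers, 1 was called higher (Ctss), with a summed share of 0.0160% to 0.0170% against 0.0145% to 0.0162%. Of 6 neuron markers 0 were called, and their summed share was 0.429% to 0.446% against 0.427% to 0.456%. Their differences were below 0 for 5 of 6 with a median of -0.028, against -0.020 for the members, and 2 had an unadjusted p under 0.05 by limma. These were Map2 (16199 to 17245, median 16590.5, against 16818 to 17192, median 16984.5) and Syt1 (12835 to 13304, median 12971, against 12726 to 13563, median 13397), each with a difference of -0.03 ± 0.01 (SE). None of the 6 markers each of oligodendrocytes, endothelium, choroid plexus and erythrocytes was called, and none of 6 liver markers reached the limit for testing. Small falls were not particular to the neuron list. Below 0 were 4 of 6 markers each of oligodendrocytes (median -0.019), endothelium (-0.015) and choroid plexus (-0.042). Of the erythrocyte markers 0 of 6 were below 0 (median 0.17). In the choroid plexus list, too, 2 markers were lower at an unadjusted p under 0.05 by limma. The part of these shifts in the member values was not tested.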

How the data were processed

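Stranded total RNA libraries, depleted of ribosomal RNA, were made from whole brain of 16 mice. Per the labels and the methods, reads were trimmed (Trim Galore 0.6.10, cutadapt 3.4), aligned to GRCm39 with STAR 2.7.10b and counted per gene with summarizeOverlaps (mode IntersectionNotEmpty, which sets how reads overlapping more than 1 gene are assigned), and the authors tested genes with DESeq2 1.40.2. The authors deposited a score per gene and mouse, a linear normalized value rounded to a whole number, whose normalization is not given in the sources used here. How reads aligned to several places were treated is not given either. Because these are not raw counts, limma 3.58.1 (in R 4.3.3, with eBayes set to trend and robust) was run on log2(value + 1) with genotype as the only term, over 23244 genes with a sum above 16 and values above 5 in at least 4 mice of a genotype. Fold changes on this scale understate those of low genes. Single genes were also compared by exact two-sided permutation over 12870 splits (smallest possible p 0.000155).

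Python 3.11.15, numpy 2.4.6, pandas 2.3.3 and matplotlib 3.10.9 were used. The limma step was tested on simulated data. Symbols, transcript lengths and positions came from GENCODE M21 (GRCm38), in which 52017 of 55404 identifiers have a symbol, and shared words are runs of 31 bases found on either strand in transcripts of other genes. Members, lists and the named genes were chosen with earlier results of these data known. Named were the 10 members with the smallest p, the 3 largest differences in each direction, the highest and lowest per kilobase in each complex, isoform groups, catalytic subunits and Ndufa2, Ndufa3, Ndufa5 and Ndufa13. Ndufb6, Ndufb7, Ndufc2, Uqcr11, Map2 and Syt1 were named after their values were seen. 1 gene chosen in this way enters the counts but is otherwise not reported here. Same-numbered mice of the genotypes deviated together weakly at most (correlations of -0.040 to 0.151, 1 of 8 over 0.1). The highest correlation was that of number 3. For ki/ki mice 3, 5 and 6, the best match among the wt/wt mice had the same number. Numbers were not used as pairs in the main fit, and a structure shared by number was not tested. The 8 mice of a genotype are separate animals.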

Additional observations from a re-analysis of the deposited data

Results flagged for a closer look

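In a group of 8 mice, the highest or lowest value was compared with its nearest neighbour and the range of the group (Dixon's ratio). Of 92 groups of members and summed shares, 9 stood out. Chance gives about 1 in 20 for a single group. The groups come from the same mice and the sums contain members, so they are not independent. The count therefore cannot be read against that rate. In wt/wt mouse 3, Uqcrq stood at 478 (nearest mouse 445), Sdhc at 645 (nearest 586) and Cox7b at 885 (nearest 784), each the highest of the genotype. The summed share of complex I in this mouse was 0.138% (nearest 0.134%). In Tecpr2 ki/ki mouse 3, Atp5b stood at 8005 (nearest 7745) and the summed share of complex V at 0.198% (nearest 0.193%). Cox6a1 stood at 1215 in wt/wt mouse 4 (nearest 1078), Ndufs1 at 1367 in wt/wt mouse 2 (nearest 1262) and Cox8b at 10 in Tecpr2 ki/ki mouse 8 (nearest 5). Without wt/wt mouse 3, the difference of Sdhc was 0.0058 and that of Cox7b 0.025, against -0.015 and -0.0043 with all mice, and both stayed within their errors.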

How the results depend on the processing

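Limma called 0 members at an adjusted p under 0.1 under each of the 24 alternatives. The summed shares were recomputed with mitochondrial genes left out of the total and with each mouse left out in turn. Their genotype differences moved by less than 1 SD between mice of a genotype in each. In complexes I to IV this SD was larger than the difference itself, so the limit does not show that the difference was stable. Without wt/wt mouse 3, the difference was -0.00058 percentage points in complex I and also in complex IV. With all mice it was -0.00124 and -0.00115. The median difference of each complex stayed below 0, except that of complex IV without ki/ki mouse 8 (0.00074). The replicate number as a block gave 46 genes at an adjusted p under 0.1 in place of 31, but again 0 members, 8 members at an unadjusted p under 0.05 and 59 lower. No filter on low values gave 20 genes at an adjusted p under 0.1. Quantile normalization gave 5 members at an unadjusted p under 0.05 in place of 8, and leaving out each mouse in turn gave from 4 to 14. Of the 38 named members fitted, 16 changed sign at least once, each with a difference near 0 against its error. Under quantile normalization, Cox6b1 (0.0061), Cox7b (0.0065), Ndufv1 (0.00071) and Uqcrc1 (0.0039) turned above 0, as did Cox6b1 (0.0037) and Uqcrc1 (0.00039) with equal totals and Cox6b1 (0.0030) with equal totals without mitochondrial genes. Over the left-out mice, the log2 difference ran for Atp5g1 from -0.034 to 0.00014, Atp5s from -0.015 to 0.057, Cox4i2 from -0.18 to 0.022, Cox5a from -0.020 to 0.065, Cox6a1 from -0.046 to 0.011, Cox6b1 from -0.019 to 0.023, Cox6b2 from -0.083 to 0.060, Cox7a1 from -0.084 to 0.19, Cox7b from -0.018 to 0.025, Ndufa13 from -0.00073 to 0.056, Ndufa2 from -0.0086 to 0.040, Ndufa3 from -0.049 to 0.013, Ndufs1 from -0.0028 to 0.024, Ndufv1 from -0.023 to 0.011, Sdhc from -0.031 to 0.0058 and Uqcrc1 from -0.020 to 0.0092. The cause of these turns was not tested. The isoforms Cox7b2 and Cox8b and the pseudogene Cox6c2 had values too low for a test. Depth per library was between 9.23 and 15.39 megareads on genes.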
